A study of Mus musculus with 9 samples.

Results

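Tuft cells are rare chemosensory cells of the intestinal epithelium, and 10 genes that mark them were read in RNA from the small intestine of mice. They were chosen by name as tuft lineage, taste signalling, eicosanoid and structural genes: Pou2f3, Gfi1b, Trpm5, Gng13, Il25, Alox5ap, Ltc4s, Dclk1, Avil and Sh2d7. All 10 were present among the 43629 genes of the count table, and all 10 were among the 15486 genes that passed the filter on low counts. The list was drawn up with earlier results of the same counts known, in which tuft cell markers as a group lay lower in HIF2α∆IEC than in control. Every value that sets HIF2α∆IEC against another group is therefore a description of the members and not a test of them. Numbers of genes called by edgeR are given beside these values for scale.

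The study compared epithelial cells of naïve mice in 3 groups of 3 libraries: HIF1α∆IEC, HIF2α∆IEC and littermate controls. ∆IEC marks a loss in intestinal epithelial cells of HIF1α (gene Hif1a) or HIF2α (gene Epas1), oxygen-sensitive partners in the hypoxia-inducible factors. The controls carry floxed HIFα alleles (HIFαF/F), and the label does not say which of the genes is floxed. The labels name neither the Cre driver, the deleted exons, the age, the sex nor the intestinal segment, and do not say that each library is 1 animal, so p-values here reflect the scatter of libraries, part of which may be technical. The extraction text also names an arthritis model that the treatment label does not.

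A tuft cell senses the gut lumen with the taste transduction pathway. A receptor acts through G protein subunits and a phospholipase to release calcium, which opens the cation channel TRPM5. The cell answers helminths, protists and microbial succinate by releasing the cytokine IL-25 and cysteinyl leukotrienes, which act on group 2 innate lymphoid cells. Interleukin 13 from those cells then favours tuft and goblet cells among the progeny of crypt stem cells. POU2F3 is the transcription factor without which the lineage does not form. It belongs to the octamer-binding POU family.

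The libraries held 20959964 to 40391453 counts. A pair of them stood apart, HIF1α∆IEC replicate 2 with 12.2% and HIF2α∆IEC replicate 1 with 10.8% of counts from mitochondrial transcripts, against 5.04 to 6.74% in the other 7, and HIF2α∆IEC replicate 1 held 3006 CPM (counts scaled to library size with TMM factors) of 11 T and intraepithelial lymphocyte markers, against 343 to 483 CPM in the controls. Xist and 4 Y-linked genes placed all 3 controls and replicate 1 of each ∆IEC group as male, and replicates 2 and 3 of each ∆IEC group as female. For Hif1a no HIF1α∆IEC library lay below all controls, with 22.6, 64.2 and 18.01 CPM against 16.0, 19.9 and 21.1 in control. Epas1 had 36.1, 11.2 and 11.6 CPM in HIF2α∆IEC against 32.7, 14.5 and 21.1 in control. Only HIF2α∆IEC replicates 2 and 3 lay below all controls for it. Such counts also include exons that may be left intact, so these values do not check the deletion, and groups are called by their labels. Epcam, a marker of all epithelium, lay between 1430 and 1814 CPM in the 9 libraries.

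The stretches before the start sites of 4 members are shown because the 10 genes varied together across libraries and their lineage factor belongs to a family that binds the octamer ATGCAAAT. Each is the 100 bases before a RefSeq start site (GRCm38.p6), read 5′ to 3′ on the gene's strand, and none overlaps an exon of the GENCODE M21 annotation. Capitals mark TGCAAA, the octamer without its first and last base. Stretches of Sh2d7, of another start of Dclk1 and of an internal start of Gng13 were also clear of exons. They held no TGCAAA and are not shown.
Avil, chr10:127000609-127000708, plus strand: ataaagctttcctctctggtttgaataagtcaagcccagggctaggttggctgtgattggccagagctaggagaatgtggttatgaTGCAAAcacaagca
Dclk1, internal start within the gene, chr3:55461628-55461727, plus strand: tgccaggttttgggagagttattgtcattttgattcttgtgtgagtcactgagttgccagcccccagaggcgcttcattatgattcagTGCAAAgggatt
Trpm5, chr7:143094643-143094742, minus strand: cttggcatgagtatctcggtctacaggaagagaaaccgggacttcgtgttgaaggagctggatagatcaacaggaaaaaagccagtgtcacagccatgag
Gfi1b, chr2:28621983-28622082, minus strand: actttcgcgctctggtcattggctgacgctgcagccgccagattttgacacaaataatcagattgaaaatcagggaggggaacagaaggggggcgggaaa

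The RefSeq table held 9 start sites of 7 members, and Pou2f3, Il25 and Alox5ap were not matched. In the 250 bases before each start, on either strand, the octamer was found at 0 of these 9 sites, against 1.60% of 32851 sites of all genes. TGCAAA, which every octamer also holds, was found at 3 of the 9 (Avil, the internal start of Dclk1 and Ltc4s), against 13.5% of all sites. In each of the 3 a copy on the gene's strand ended 7 to 9 bases before the start, and Avil had another on the opposite strand, ending 110 bases before it. These are matches of letters and were not tested as binding sites.

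Levels per gene length ran over a wide range. Alox5ap had the highest mean over the 9 libraries, 17.8 CPM per kilobase of the deposited gene length, followed by Avil at 11.6, Sh2d7 at 9.19 and Trpm5 at 7.61. Ltc4s had 6.13 and Pou2f3 3.82 CPM per kilobase. Dclk1 had 1.45, Gng13 1.19, Gfi1b 1.08 and Il25 0.364 CPM per kilobase. Neighbours in this order were separated unequally: Alox5ap lay above Avil in 9 of 9 libraries, whereas Trpm5 lay above Ltc4s in 6, Dclk1 above Gng13 in 7 and Gng13 above Gfi1b in 6. The order of the first pair rests on the gene length used. With the exon lengths of GENCODE M21, which give Alox5ap 1420 bases where the deposited table has 852, Alox5ap had 10.7 CPM per kilobase against 11.6 for Avil.

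The lineage factors are described first. For Pou2f3 (ENSMUSG00000032015, mm10 chromosome 9, 43123939 to 43210369) control replicates 1, 2 and 3 read 21.3, 8.45 and 5.46 CPM. The level was 21.9, 10.8 and 9.81 CPM in HIF1α∆IEC and 6.86, 5.21 and 3.35 CPM in HIF2α∆IEC. Replicate 1 was the highest library of every group, the HIF2α∆IEC libraries all lay below the HIF1α∆IEC libraries, and they overlapped the controls only through control replicate 3. Gfi1b (ENSMUSG00000026815, chromosome 2, 28609450 to 28621982), a zinc-finger repressor of tuft cells that erythroid and megakaryocyte precursors also use, had 3.37, 1.91 and 1.14 CPM in control, 3.70, 3.27 and 1.43 CPM in HIF1α∆IEC and 1.83, 0.769 and 0.324 CPM in HIF2α∆IEC. Its lowest library, HIF2α∆IEC replicate 3, held 14 reads, and the groups overlapped. The sum of 6 erythroid genes was 118, 18.9 and 13.1 CPM in HIF2α∆IEC replicates 1, 2 and 3 and 2.73 to 6.91 CPM in the controls, and its part in the Gfi1b counts was not tested.

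The taste signalling members are a channel and a G protein subunit. Trpm5 (ENSMUSG00000009246, chromosome 7, 143069153 to 143094642), the calcium-gated channel that depolarises the cell, had 92.0, 52.9 and 32.4 CPM in control, 94.4, 38.2 and 42.6 CPM in HIF1α∆IEC and 41.2, 24.6 and 20.2 CPM in HIF2α∆IEC. Control replicate 1 and HIF1α∆IEC replicate 1 stood above all other libraries, and HIF2α∆IEC replicate 1 lay within the range of both other groups. Gng13 (ENSMUSG00000025739, chromosome 17, 25717171 to 25719406), the G protein gamma subunit of taste cells, had 1.71, 0.691 and 0.531 CPM in control, 1.63, 1.32 and 1.32 CPM in HIF1α∆IEC and 0.598, 0.370 and 0.139 CPM in HIF2α∆IEC. It rested on 6 to 45 reads per library. Its HIF1α∆IEC libraries were close to each other and all above HIF2α∆IEC. Trpm5 overlaps Tssc4 and Gng13 overlaps Chtf18 on the opposite strand. Whether counting used strand is not given, so reads of each pair cannot be told apart. In all libraries Tssc4 held 10161 reads against 11606 for Trpm5, and Chtf18 held 8599 against 211 for Gng13.

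Il25 (ENSMUSG00000040770, chromosome 14, 54932695 to 54935837), the cytokine that activates group 2 innate lymphoid cells, was the member of lowest level. It had 1.32, 0.203 and 0.190 CPM in control, from 27, 5 and 5 reads. It had 0.399, 0.370 and 0.464 CPM in HIF1α∆IEC, from 11, 7 and 13 reads, and 0.126, 0.228 and 0.185 CPM in HIF2α∆IEC, from 4, 8 and 8 reads. Control replicate 1 stood alone above the rest, and the HIF1α∆IEC libraries lay above the other 2 controls and above all of HIF2α∆IEC.

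The eicosanoid members act in the synthesis of leukotrienes. Alox5ap (ENSMUSG00000060063, chromosome 5, 149265058 to 149288045), the membrane partner of 5-lipoxygenase, had 33.5, 12.2 and 6.41 CPM in control, 32.0, 15.1 and 14.9 CPM in HIF1α∆IEC and 11.4, 6.24 and 4.67 CPM in HIF2α∆IEC. Its HIF2α∆IEC libraries were all below HIF1α∆IEC and overlapped the controls. Ltc4s (ENSMUSG00000020377, chromosome 11, 50236469 to 50238616), which joins glutathione to leukotriene A4, had 6.59, 3.17 and 2.54 CPM in control, 7.39, 6.07 and 5.21 CPM in HIF1α∆IEC and 4.31, 3.22 and 2.13 CPM in HIF2α∆IEC. Ltc4s differed from the other members in HIF2α∆IEC, where it lay 0.60, 0.91 and 0.74 log2 units above the members' median difference from control in replicates 1, 2 and 3. In HIF1α∆IEC the same quantity for Ltc4s was 0.03, 0.55 and 0.57. For Il25, at few reads, it was -0.83, 0.50 and 0.69 in HIF2α∆IEC. Ltc4s overlaps Gm26542 on the opposite strand, which held 248 reads in all libraries against 1087 for Ltc4s. Its part in the Ltc4s counts was not tested. Leukocytes also use Alox5ap and Ltc4s. Myeloid and mast cell markers summed to 169, 79.8 and 70.5 CPM in HIF2α∆IEC replicates 1, 2 and 3 and to 77.0 to 131 CPM in the controls, and their part in these 2 genes was not tested.

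The structural, kinase and adaptor members come last. Dclk1 (ENSMUSG00000027797, chromosome 3, 55242526 to 55539064), a microtubule-linked kinase widely used to stain tuft cells, had 32.3, 19.5 and 13.4 CPM in control, 28.2, 30.7 and 14.6 CPM in HIF1α∆IEC and 17.9, 6.04 and 7.28 CPM in HIF2α∆IEC. HIF1α∆IEC replicate 2 was the highest of its group for Dclk1, and for no other member. Avil (ENSMUSG00000025432, chromosome 10, 127000709 to 127020994), which encodes advillin, an actin-bundling protein of the tuft, had 77.9, 39.4 and 24.5 CPM in control, 81.9, 29.9 and 35.7 CPM in HIF1α∆IEC and 31.6, 19.3 and 14.1 CPM in HIF2α∆IEC. Avil overlaps Tsfm on the opposite strand, which held 14076 reads in all libraries against 9328 for Avil. The part of Tsfm in the Avil counts was not tested. Sh2d7 (ENSMUSG00000046460, chromosome 9, 54538984 to 54545020), an SH2 domain gene, had 58.0, 23.4 and 14.6 CPM in control, 52.9, 19.1 and 23.6 CPM in HIF1α∆IEC and 17.8, 9.69 and 9.27 CPM in HIF2α∆IEC. Sh2d7 overlaps Cib2 on the opposite strand, which held 1381 reads in all libraries against 5936 for Sh2d7. The part of Cib2 in the Sh2d7 counts was not tested. For Sh2d7 the HIF2α∆IEC libraries all lay below HIF1α∆IEC, while those of Dclk1 and Avil overlapped both groups through replicate 1.

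**Figure D1:**
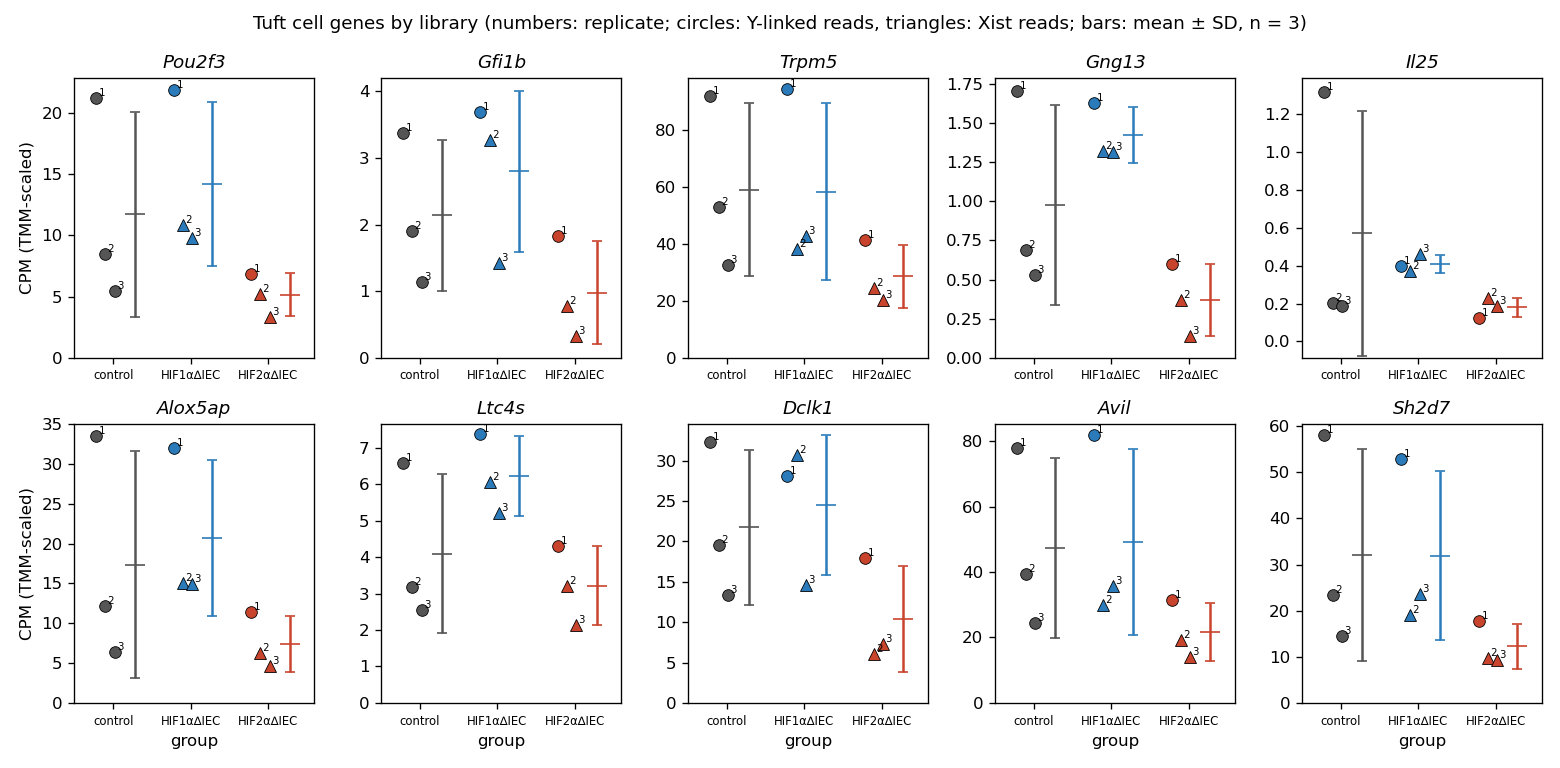
TMM-scaled CPM of each of the 10 tuft cell genes (vertical axes from 0, or from below 0 where the SD bar of Il25 reaches there) in control, HIF1α∆IEC and HIF2α∆IEC, with points for libraries numbered by replicate, circles for libraries with Y-linked reads, triangles for libraries with Xist reads, and bars for the mean ± SD of 3 libraries. Control replicate 1 is the highest control for all 10 genes, and HIF2α∆IEC replicate 3 is the lowest of the 9 libraries for 8 of them.

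Most members were highest and lowest in the same few libraries. Control replicate 1 was among the 2 highest libraries for 10 of 10 members and HIF1α∆IEC replicate 1 for 8, and they split the highest value 5 to 5. HIF2α∆IEC replicate 3 was among the 2 lowest for 10 of 10 and HIF2α∆IEC replicate 2 for 8. Within the controls, replicate 1 was the highest and replicate 3 the lowest for all 10. The members' median of log2 CPM, taken from the control mean, was 0.91, -0.20 and -0.76 in control replicates 1, 2 and 3, 0.93, 0.13 and -0.11 in HIF1α∆IEC and -0.40, -1.13 and -1.54 in HIF2α∆IEC. HIF2α∆IEC replicate 1 lay inside the range of the controls and replicates 2 and 3 below it. In bulk RNA fewer tuft cells and less of this RNA per tuft cell cannot be told apart.

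**Figure D2:**
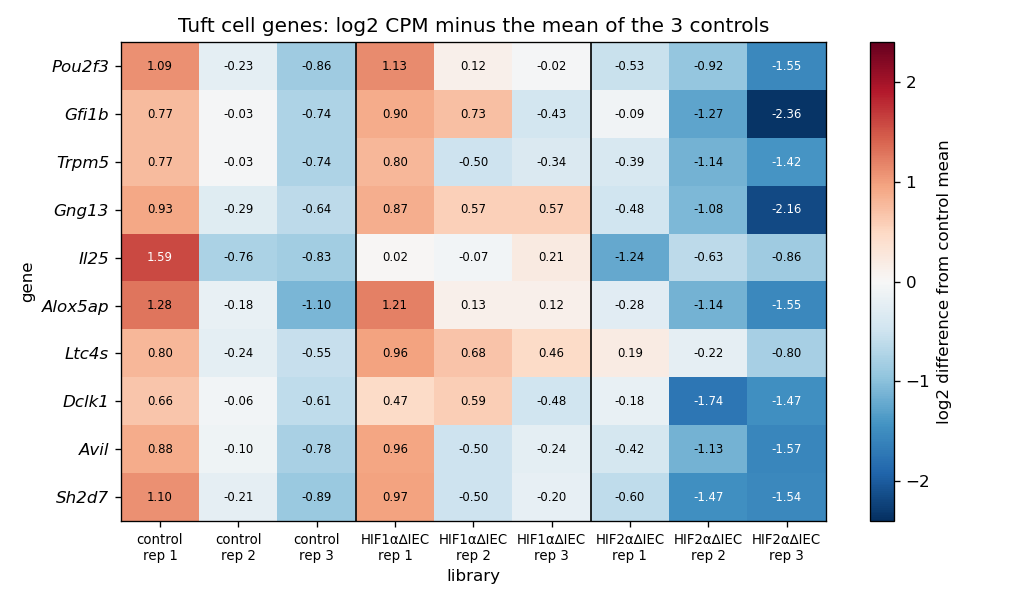
Log2 CPM of each of the 10 genes (rows) in each library (columns) minus the mean of the 3 controls, with red above and blue below it. The columns of control replicate 1 and HIF1α∆IEC replicate 1 are high for most genes (median 0.91 and 0.93), and those of HIF2α∆IEC replicates 2 and 3 are low for all (median -1.13 and -1.54).

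HIF1α∆IEC was first set against control, for the effect of losing HIF1α in the epithelium. None of the 10 genes passed the test. The groups overlapped for 10 of 10 members, where 3.72% of all genes tested lay wholly below control and 4.6% wholly above, and 0 of them passed the edgeR quasi-likelihood test, which called 0 of 15486 genes (0%), with 600 genes (3.87%) at an unadjusted p under 0.05. The log2 fold changes ran from -0.43 ± 0.72 (SE) for Il25 to 0.61 ± 0.42 for Ltc4s, 3 of 10 were negative (47.3% of all genes), 0 were at -1 or less (1.9%), and the edgeR adjusted p was 0.999 for each member. Pou2f3 was at 0.28 ± 0.51, Trpm5 at -0.02 ± 0.44 and Dclk1 at 0.17 ± 0.46. The members' median was 0.21, beside 0.02 for all genes tested. That median was -0.22 without HIF1α∆IEC replicate 1 and 0.92 without control replicate 1, the 2 libraries of highest tuft RNA. It was 0.78 with a term for sex.

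For HIF2α∆IEC against control, the analogous question for HIF2α, the values are those known when the members were chosen. All 10 log2 fold changes were negative (47.1% of all genes), and 9 were at -1 or less (1.19%). Mean Pou2f3 was 5.14 ± 1.76 CPM (SD, n = 3) in HIF2α∆IEC and 11.7 ± 8.41 in control, mean Trpm5 28.6 ± 11.1 and 59.1 ± 30.3, mean Dclk1 10.4 ± 6.55 and 21.7 ± 9.65, and mean Sh2d7 12.2 ± 4.80 and 32.0 ± 23.0. The log2 fold changes ran from -1.60 ± 0.75 for Il25 to -0.35 ± 0.42 for Ltc4s, with Sh2d7 at -1.38 ± 0.53 and Gng13 at -1.40 ± 0.61. Their median was -1.16 and that of all genes tested 0.01. The groups still overlapped for 10 of 10 members (2.51% of all genes lay wholly below control and 3.03% wholly above). The edgeR test called 0% of the genes, with 1.85% at an unadjusted p under 0.05.

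Single libraries set the size of that difference. The members' median was -0.58 without control replicate 1 and -1.57 without HIF2α∆IEC replicate 1. Without control replicate 1, Il25 was at -0.13, Alox5ap at -0.34 and Ltc4s at 0.15. The median was -0.60 with a term for sex. The controls were all male and the 2 HIF2α∆IEC libraries of lowest tuft RNA were female, so in those libraries sex and HIF2α loss cannot be told apart. They lay below all 3 controls for 8 of 10 members, where 9.27% of all genes did. The male HIF2α∆IEC library lay below all 3 controls for Il25 alone, where 33.5% of all genes did.

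HIF2α∆IEC can also be set against HIF1α∆IEC, where each group has 1 male and 2 female libraries. All 10 members were lower in HIF2α∆IEC (48.4% of all genes), by a median of -1.31 on the log2 scale, beside 0.01 for all genes tested. Gng13 was at -1.96 ± 0.61, Gfi1b at -1.53 ± 0.64, Alox5ap at -1.48 ± 0.57, Pou2f3 at -1.47 ± 0.52 and Ltc4s at -0.95 ± 0.42. The HIF2α∆IEC libraries lay wholly below HIF1α∆IEC for 6 of 10 members (Pou2f3, Gng13, Il25, Alox5ap, Ltc4s and Sh2d7), where 6.08% of all genes did and 4.37% lay wholly above. For 9 of 10 the fold change was -1 or less (3.11% of all genes). The edgeR test called 0% of the genes, with 6.59% at an unadjusted p under 0.05. Within sex, the female HIF2α∆IEC libraries lay below the female HIF1α∆IEC libraries for 10 of 10 members (19.8% of all genes), and the male library below the male for 10 of 10 (48.4% of all genes). The median was -1.71 without HIF2α∆IEC replicate 1, -0.99 without HIF1α∆IEC replicate 1 and -1.35 with a term for sex. The HIF2α∆IEC libraries are the same as in the comparison with control, so these values are not a separate observation of them.

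**Figure D3:**
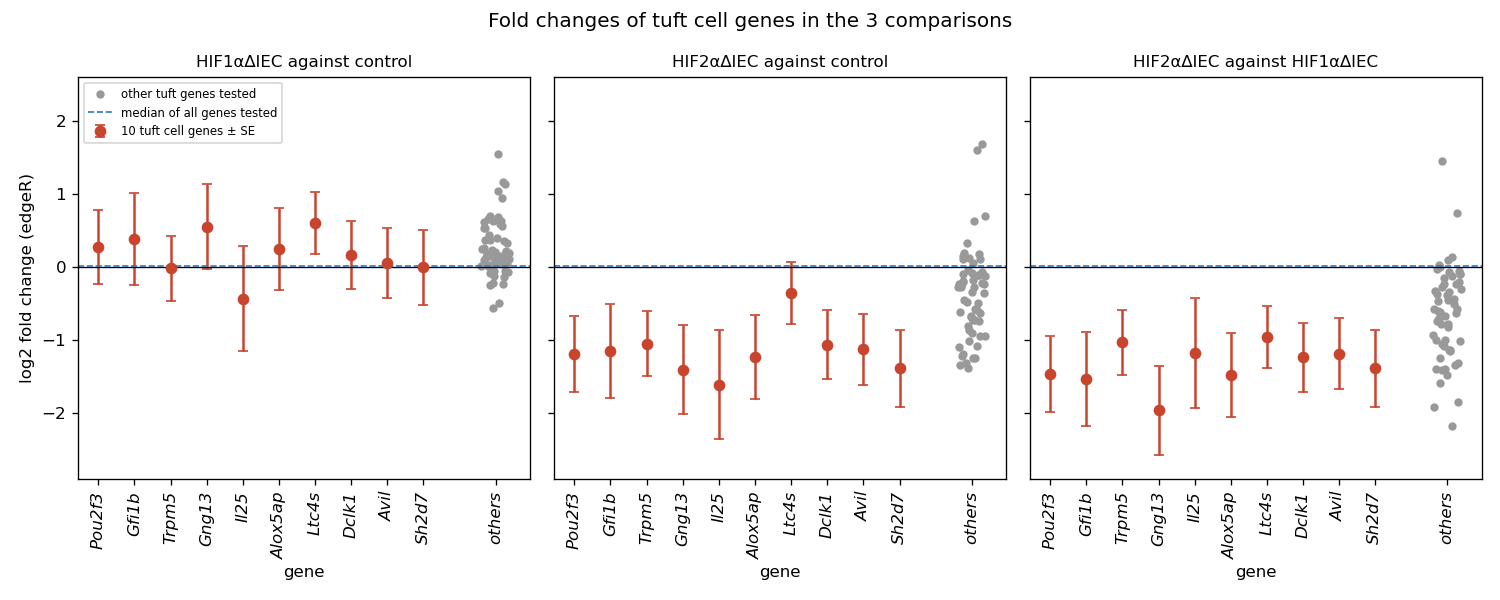
Log2 fold change from edgeR (vertical axis) of the 10 tuft cell genes with SE bars (red) and of the 58 other tuft genes tested (grey) in each of the 3 comparisons, with the median of all genes tested as a dashed line. The red points lie around 0 for HIF1α∆IEC against control (median 0.21) and below it in the other 2 panels (median -1.16 and -1.31).

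Within each ∆IEC group the female libraries had less tuft RNA than the male one: they lay below it for 8 of 10 members in HIF1α∆IEC (26.8% of all genes) and for 9 of 10 in HIF2α∆IEC (41.5% of all genes). The male library is replicate 1 in each, so sex and whatever else replicate 1 shares cannot be told apart. The controls, all male, also spread widely, with Sh2d7 at 58.0 and 14.6 CPM in replicates 1 and 3.

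Beyond the 10 members, 66 other genes known from tuft cells were listed by role, and 58 passed the filter. These lists too were drawn up with the earlier results known, so their values for HIF2α∆IEC are a description and no separate support. The edgeR test called 0 of the 58 in each of the 3 comparisons. In HIF2α∆IEC 46 of 58 had a negative fold change, with a median of -0.31, and 47.1% of all genes tested were negative. In HIF1α∆IEC 11 of 58 were negative (47.3% of all genes), with a median of 0.17. That median was 0.79 with a term for sex, 0.51 without control replicate 1 and -0.10 without HIF1α∆IEC replicate 1. Against HIF1α∆IEC, 52 of 58 were negative in HIF2α∆IEC (48.4% of all genes), with a median of -0.59. Without HIF2α∆IEC replicate 1 the medians were -0.97 against control and -1.29 against HIF1α∆IEC. The first was -0.03 without control replicate 1, and the second -0.31 without HIF1α∆IEC replicate 1.

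The 3 genes of highest level in each role are given here. Among taste and receptor signalling genes Itpr3, the calcium release channel of taste cells, was at -0.20 in HIF2α∆IEC against control with a mean of 278 CPM over all libraries, Plcg2 at -0.19 with 61.9 CPM and Plcb2, the taste phospholipase, at -0.72 with 15.2 CPM. Plcb2 had 23.2, 17.4 and 10.4 CPM in control, 28.8, 10.3 and 15.4 CPM in HIF1α∆IEC and 18.4, 7.21 and 5.32 CPM in HIF2α∆IEC, with replicate 1 again the highest of every group. Several genes of this pathway were scarcely read: Gnat3, the taste G protein alpha subunit gustducin, had at most 11 reads in a library, Tas2r108 had 2 reads in all 9 libraries together, and the bitter receptor gene Tas2r143 was listed at 0 in all 9.

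Of the eicosanoid and acetylcholine genes, Alox5, which encodes 5-lipoxygenase, had 39.99, 18.8 and 11.2 CPM in control, 43.1, 16.6 and 18.4 CPM in HIF1α∆IEC and 17.3, 6.30 and 5.85 CPM in HIF2α∆IEC. As for Alox5ap, its membrane partner, replicate 1 was the highest of every group. Ptgs1, a cyclooxygenase, was at -0.57 in HIF2α∆IEC against control. Of the 5 genes of this role that were tested, 2 were positive there: Pla2g4a, which frees arachidonic acid, at 0.12 and Hpgds at 0.70. The HIF1α∆IEC libraries had 3.91, 13.9 and 4.14 CPM of Pla2g4a, all above the controls at 2.81 to 3.66 CPM. Of all genes tested 4.6% lay wholly above control, as did 2 of the 58 other tuft genes. The 13.9 CPM were in replicate 2, which stood apart. In this comparison edgeR did not call Pla2g4a (adjusted p = 0.999).

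Of the transcription factors, Spib had 80.1, 37.1 and 23.7 CPM in control, 71.0, 34.2 and 39.1 CPM in HIF1α∆IEC and 34.3, 18.2 and 13.4 CPM in HIF2α∆IEC, and replicate 1 was the highest of every group here too. Sox9 and Myb, which crypt progenitors also use, were at -0.21 and -0.27. Among genes that tuft cells share with blood cells, Cd24a was at -0.34, Inpp5j at 0.06 and Ptpn6 at -0.08. Ptprc, the leukocyte antigen CD45, was the highest of the list at 1.69, with 66.8, 4.33 and 3.72 CPM in HIF2α∆IEC against 6.30 to 9.43 CPM in control, and was chosen for mention after its values were seen. Ptprc is itself 1 of the 11 T and intraepithelial lymphocyte markers. It was high in the library where these summed highest, HIF2α∆IEC replicate 1, at 3006 CPM. It also had 47.3 CPM in HIF1α∆IEC replicate 2, where these markers summed to 536 CPM. The source of its reads was not tested. Among cytoskeletal and other genes Krt18 was at -0.26, Sh2d6 at -0.63 and Tuba1a at -0.68.

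The genes whose log2 CPM followed the members most closely over the 9 libraries were sought among 11742 genes of at least 1 CPM, predicted genes and clones left out. Of the 10 nearest, 6 were on the tuft lists, among them Ffar3, a short-chain fatty acid receptor (Pearson r = 0.99 over 9 libraries), Spib (0.98), the keratin gene Krt23 (0.98), Nrgn (0.97) and Alox5 (0.97). The other 4 were Ppp1r14c, St6galnac6, Ccdc109b and Pik3r5, with r of 0.97 to 0.98. Without the 2 libraries of highest tuft RNA, r over the remaining 7 was 0.93 to 0.98 for the 10 genes. Pik3r5, a regulatory subunit of phosphoinositide 3-kinase gamma, had 50.8, 26.5 and 18.3 CPM in control, 54.2, 22.6 and 24.8 CPM in HIF1α∆IEC and 22.9, 12.9 and 9.78 CPM in HIF2α∆IEC. Of the 54 other tuft genes that could be ranked, 22 were among the nearest 100. All of these values share the same libraries and scaling and describe likeness only.

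Markers of other cell types are given for the same libraries. Goblet cell markers, the other epithelial arm of the type 2 response, had a median log2 difference of 0.04, -0.13 and 0.07 from the control mean in the controls, 0.38, 0.27 and 0.52 in HIF1α∆IEC and 0.24, 0.50 and 0.06 in HIF2α∆IEC. Enteroendocrine markers lay between -0.34 and 0.43 in all 9 libraries. Paneth cell markers were lowest in HIF2α∆IEC replicate 1 at -1.31, where tuft RNA was not lowest, and lay between -0.40 and 0.54 in the other 8. T and intraepithelial lymphocyte markers were at 2.68 in HIF2α∆IEC replicate 1 and at -0.35 and -0.65 in replicates 2 and 3, all 11 of them with reads in every library. Stromal markers summed to 20.2 to 51.7 CPM in HIF2α∆IEC, 12.2 to 29.0 CPM in HIF1α∆IEC and 11.96 to 17.5 CPM in control, and their part in the tuft values was not tested.

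**Figure D4:**
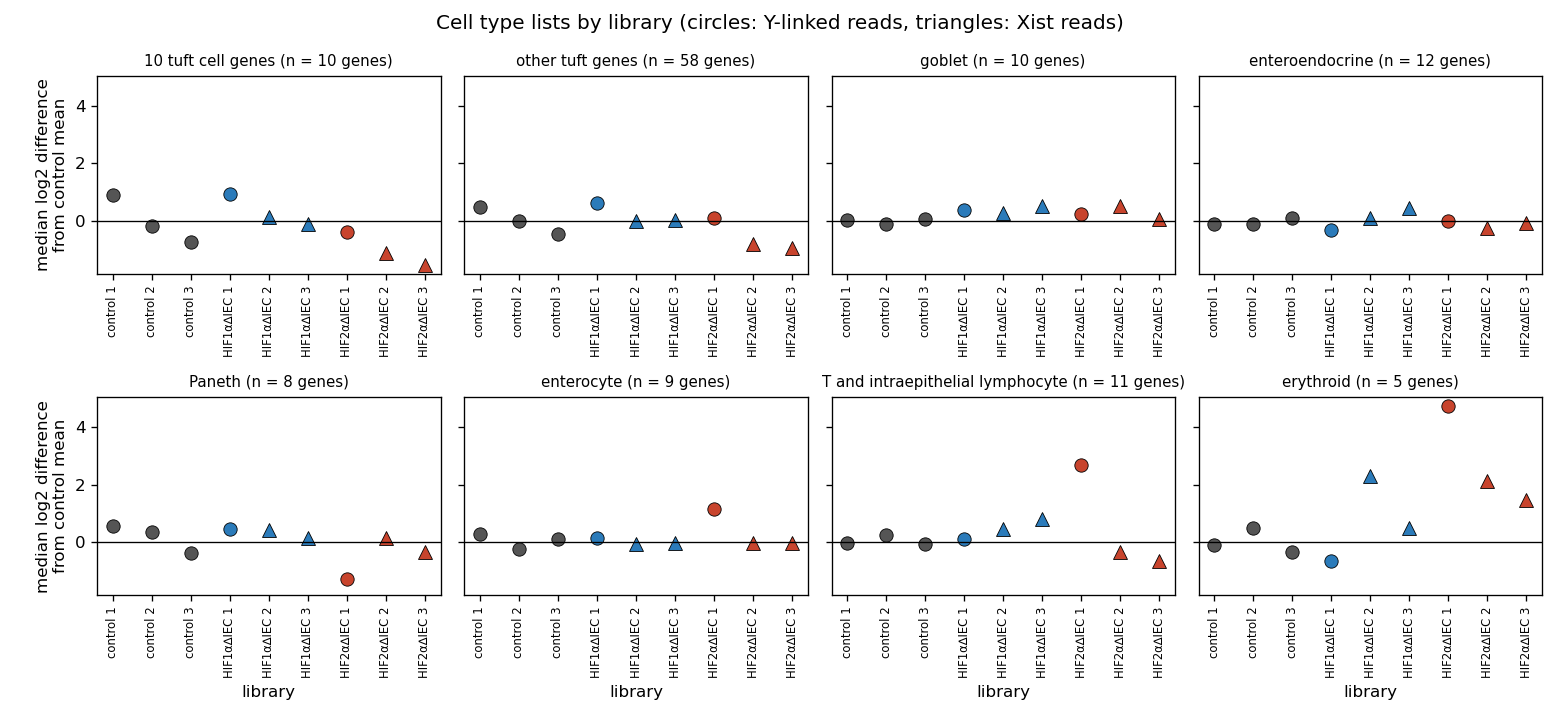
Median over the tested genes of a cell type list of log2 CPM minus the control mean (vertical axis), by library (horizontal axis), with circles for libraries with Y-linked reads and triangles for libraries with Xist reads. The 10 tuft cell genes run from 0.93 in HIF1α∆IEC replicate 1 to -1.54 in HIF2α∆IEC replicate 3, while the enteroendocrine list stays between -0.34 and 0.43 and HIF2α∆IEC replicate 1 stands out in the lymphocyte and erythroid lists.

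Genes of the circuit outside tuft cells were read as well. Il13 had at most 8 reads in a library, Il5 at most 3 and Il4 at most 9, below the filter. Stat6 and Il4ra, which relay interleukin 4 and 13 signals, were at -0.03 and -0.10 in HIF2α∆IEC against control and at -0.12 and 0.11 in HIF1α∆IEC. Retnlb, which encodes a goblet cell protein induced by interleukin 13, had 28.9, 2.80 and 1.97 CPM in control. It had 61.0, 64.2 and 9.77 CPM in HIF1α∆IEC and 2.27, 0.826 and 3.21 CPM in HIF2α∆IEC. It was named after its values were seen. Control replicate 1, the control of highest tuft RNA, was again the highest control. The HIF1α∆IEC libraries all lay above HIF2α∆IEC, as they did for 6.08% of all genes. The main edgeR test did not call it in any comparison.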

How the data were processed

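The members and gene lists were chosen with earlier results of these data known. The authors deposited raw read counts per gene for 9 libraries with gene lengths in bases. The submitters' processing notes name CASAVA, Bowtie 0.12.2 and mm10. How genes were counted, and whether by strand, is not given in the sources. With edgeR 4.0.16 (R 4.3.3), genes were filtered by filterByExpr, scaled by TMM and fitted by group over all 9 libraries. Contrasts used its two-sided quasi-likelihood test with Benjamini-Hochberg adjustment over 15486 genes at 0.05. Log2 CPM used a prior count of 2; CPM per kilobase divides by the deposited length. Errors are SD of CPM (n = 3) and SE of log2 fold changes. Alternatives tried: DESeq2 1.42.0, limma-voom (3.58.1), scaling by RLE or upper quartile, 2 other filters, the 6 libraries compared, a replicate block, a sex term, and libraries left out. The sex term is read from Xist and Y-linked reads, with all controls male. Fits were tested on simulated counts with less scatter than these libraries, which does not show what the fits could detect here.

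No 2 libraries of a group agreed within counting noise (chi-square per gene at least 41.8). Libraries of different groups were closer in 2 cases. Control replicate 1 with HIF1α∆IEC replicate 1 gave 16.4, and control replicate 3 with HIF2α∆IEC replicate 3 gave 24.5. The first are the libraries of highest tuft RNA, and the second are the lowest of their groups for most members. The cause was not tested. Named genes were the members, the 3 of highest mean CPM of each other tuft list and up to 2 of other lists, the 10 of nearest profile (1 of them is not reported here), Hif1a, Epas1 and Xist; Epcam, Ptprc, Retnlb and the genes given by their low read numbers were chosen after their values were seen.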

Additional observations from a re-analysis of the deposited data

How the results depend on the processing

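The members' median kept its sign in 19 of 19 alternatives for HIF2α∆IEC against control and against HIF1α∆IEC, and moved by less than the spread between replicates (0.78 log2 units) in each. It ran from -1.57 to -0.58 and from -1.71 to -0.99 over the libraries left out. In HIF1α∆IEC against control it ran from -0.22 to 0.92. The median of the 58 other tuft genes moved by more than its own spread between replicates (0.56) in 5 alternatives: to 0.79 with a sex term in HIF1α∆IEC against control, and without HIF2α∆IEC replicate 1 or the 2 libraries that stood apart to -0.97 in each for HIF2α∆IEC against control and to -1.29 and -1.32 against HIF1α∆IEC. Of 188 single member values for HIF2α∆IEC against control, 1 was positive. The counts of called genes were 0 to 1 over the libraries left out in each comparison and held no member under any alternative. For HIF1α∆IEC against control they were 2 with DESeq2, 1 without a filter and 1 with the replicate block. For HIF2α∆IEC against control they were 5 with DESeq2, 5 without a filter, 2 with the replicate block and 1 without the 2 libraries that stood apart. For HIF2α∆IEC against HIF1α∆IEC they were 15 with DESeq2 and 10 without a filter. Why these counts differ was not tested. Same-numbered libraries correlated from -0.37 to 0.24 in their deviations from group means, over 0.1 in 3 of 9 pairs. The closest libraries of different groups, at a chi-square per gene of 16.4 and 24.5, did share a number. Whether the numbers pair libraries therefore cannot be told. The block gave member medians of 0.32, -1.07 and -1.31.

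In HIF1α∆IEC against control, where fold changes were near 0, signs turned in 27 member values, 16 of them with 1 library left out, and the cause was not tested. Over those, Pou2f3 ran from -0.21 to 1.00, Trpm5 from -0.58 to 0.42, Il25 from -0.86 to 1.02, Alox5ap from -0.23 to 1.13, Dclk1 from -0.083 to 0.54, Avil from -0.56 to 0.59 and Sh2d7 from -0.61 to 0.72. With limma-voom Trpm5 was at 0.023, Il25 at 0.18 and Sh2d7 at 0.16. Sh2d7 was at 0.0041 with a minimum of 1 CPM in 3 libraries, at 0.0042 in the 6 libraries compared and at 0.075 with the replicate block. With a sex term Trpm5 was at 0.57 and Sh2d7 at 0.60. Without the 2 libraries that stood apart Trpm5 was at 0.20, Dclk1 at -0.042 and Sh2d7 at 0.24. Il25 gave no value with a minimum of 1 CPM in 3 libraries, nor against control in the 6 libraries compared. Il25, Gng13 and Gfi1b had under 50 reads in some libraries, which limits their precision.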
